A study of Mus musculus with 12 samples.

Results

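The comparison described here is the one between genotypes in young muscle: 3 arrays labelled knock-out against 3 labelled wild-type, all from the gastrocnemius, a calf muscle of mostly fast fibres, of mice aged 10 weeks. These 6 arrays were chosen by their labels alone, and they are 6 of the 12 arrays of the series. The knock-out is a deletion of Ppargc1a, the gene of PGC-1alpha, confined to muscle by a cre recombinase under the myogenin promoter, on a mixed strain written C57Bl/6N/6J/129. The labels do not say which exons are deleted, whether the wild-type controls carry the cre or a floxed allele, or whether each array came from a separate animal, and the title of the second young wild-type array ends in a suffix that they do not explain. The p-values therefore rest on the spread among these arrays, part of which may be technical. The other 6 arrays are muscle of the same 2 genotypes at 24 months, 3 of each, and serve below as a second set of samples for the same contrast. Each array reads 45101 probe sets, and 18193 genes with a name were tested, each with 1 probe set. Values are log2 signals, differences are knock-out minus wild-type on that scale, and ± gives the standard error from limma unless an SD is named.

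PGC-1alpha is a coactivator: it does not bind DNA itself but is brought to promoters by partners such as the estrogen-related receptors, NRF-1, GABP and MEF2, and raises their output. Its best known targets in muscle are genes encoded in the nucleus for mitochondria, which supply the respiratory chain, the tricarboxylic acid cycle and fatty acid oxidation. It is induced by exercise, and muscle rich in it has more mitochondria and more oxidative fibres.

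The Ppargc1a signal did not mark the deletion. On its brightest probe set the wild-type arrays read 10.77, 11.17 and 11.18 and the knock-out arrays 11.14, 11.48 and 12.10, so that the groups overlapped and the knock-out side was not the lower one. All 5 probe sets gave differences between 0.42 and 0.58, none past the test (adjusted p = 0.410 for the brightest), and a probe set outside the deleted exons would check nothing. Genotypes are named below by the label of the array. The correlation of 2 arrays over all genes was 0.993 to 0.997 within a genotype and 0.990 to 0.996 between genotypes. The first principal component of the 6 arrays (41.8% of the variance) placed the wild-type arrays at -3.29, 26.3 and 10.8 and the knock-out arrays at -1.84, -12.3 and -19.6, which overlap. The tissue matched its label: the 10 markers of skeletal muscle fibres, such as Ckm and Ttn, were all bright. Of these, 9 read above 15 on every young array, near the array maxima of 15.93 to 15.95, so that their median difference of 0.00 is read close to the top of the scale.

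In young knock-out muscle 28 genes (0.154% of 18193) were lower and 7 (0.0385%) higher than in young wild-type muscle past the test, an adjusted p under 0.05. The genes that fell encode, among others, both aspartate aminotransferases (Got1, Got2), a cytochrome c oxidase subunit in its muscle form (Cox7a1), the creatine kinase of mitochondria (Ckmt2) and the superoxide dismutase of mitochondria (Sod2). The falls ran from 3.79-fold (Kcng4) to 1.40-fold (Mccc1), and 18 of the 28 belonged to one of the 38 pathway lists read here, which hold 4.6% of the genes tested. The lists were drawn up with earlier results of these data known, so this share is no evidence of a concentration in pathways. The same holds for the shares of list members given below, which only describe the lists. Both directions together made 0.192% of all genes. The counts of called genes in each list below stand beside these shares, 0.154% of all genes lower and 0.0385% higher. An unadjusted p under 0.05 was held by 2049 genes, and the median difference of all genes was -0.01. In each of the 35 genes the 3 knock-out arrays lay wholly to one side of the 3 wild-type arrays, as they did in 20.8% of all genes. The number called rests on single arrays: it was 1 without the third young wild-type array, 7 or 8 without any 1 of the young knock-out arrays, 7 without the second and 46 without the first young wild-type array. It was 13 to 16 without any 1 of the old wild-type arrays and 173 without the first old knock-out array, since the 4 groups share 1 estimate of the spread. Glrx passed in all 21 settings run, Fuom, Phyh and S100a1 in 20, and Got2 and Thap4 in 19. At the other end 8 of the 35 genes passed in 10 settings or fewer: Trim14 in 6, Lonrf1 in 8, Atp5g1 and Hsbp1l1 in 9, and Ckmt2, Lrp11, Mccc1 and Tinag in 10. Trim14, Hsbp1l1, Tinag and Tph1 were too dim to be tested in the setting of brighter genes, which is counted as not passed. All 35 pass the setting of an adjusted p of 0.10 by construction. Of the 24 further probe sets for 14 of the called genes, 23 gave a difference of the same sign and 13 were at least 0.5 times the size. All 17 with a mean above the median probe set (6.22) had the same sign, among them those of Psip1 at 0.03 and 0.04.

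**Figure D1:**
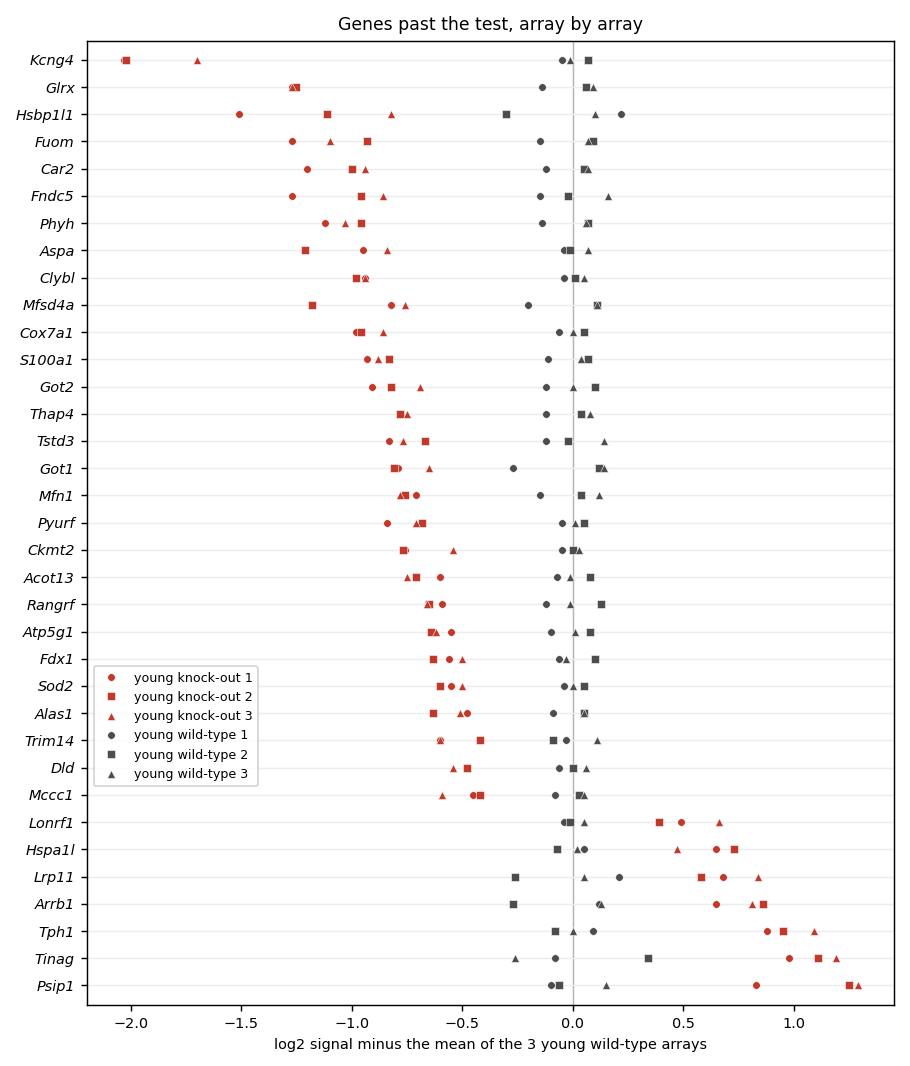
Log2 signal of each young array minus the mean of the 3 young wild-type arrays (horizontal axis) for the 35 genes past the test (rows), with knock-out arrays in red, wild-type arrays in grey and a symbol shape for each replicate number. The 28 genes that fell have all red points to the left of the grey ones, from Kcng4 at -1.92 to Mccc1 at -0.49 on average, and the 7 genes that rose have them to the right.

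The malate-aspartate and glycerol phosphate shuttles carry reducing equivalents of cytosolic NADH into mitochondria. In their list 3 of 10 genes fell and 0 rose, against 0.154% and 0.0385% of all genes. Of the 3, 1 is Aspa, an enzyme of aspartate supply that is not part of a shuttle. Got2, the aspartate aminotransferase of the mitochondrial matrix, read 13.62, 13.84 and 13.74 in wild-type and 12.83, 12.92 and 13.05 in knock-out arrays. The knock-out values were all lower, by 1.74-fold on average (-0.80 ± 0.09, adjusted p = 0.00481), and a second probe set gave -0.97. Much dimmer probe sets of Got2 gave -0.11 and 0.10. Got1, its cytosolic partner, read 12.93, 13.32 and 13.34 against 12.41, 12.39 and 12.55, a difference of -0.75 ± 0.12 (adjusted p = 0.0304). Both ends of the same transamination were thus lower, although the first wild-type array stood nearest to the knock-out arrays for Got1. Aspa, which frees aspartate from N-acetylaspartate, read 8.45, 8.48 and 8.56 against 7.54, 7.28 and 7.65 (-1.01 ± 0.13, adjusted p = 0.00962). The carriers of the shuttle did not pass: Slc25a11, which exchanges malate for 2-oxoglutarate, was at -0.53 ± 0.13 (adjusted p = 0.131) and Slc25a12, which exchanges aspartate for glutamate, at -0.33 ± 0.09 (adjusted p = 0.199). The list had a median of -0.28. In 7 of its 10 genes, Aspa among them, every knock-out array lay below every wild-type array, against 10.1% of all genes. As the list was drawn up with earlier results known, this share describes it and tests nothing.

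In the pyruvate dehydrogenase complex and the tricarboxylic acid cycle, which turn pyruvate into acetyl-CoA and oxidise it, 1 of 20 genes fell and 0 rose. That gene was Dld, the dihydrolipoamide dehydrogenase shared by the pyruvate and 2-oxoglutarate complexes. It had means of 11.94 ± 0.06 in wild-type and 11.44 ± 0.04 in knock-out arrays (SD, n = 3 each), with no overlap (difference -0.50 ± 0.08, adjusted p = 0.0341 by limma). A second, much dimmer probe set of Dld gave -0.14. The list ran from -0.83 to 0.17 with a median of -0.38. In 18 of 20 genes all knock-out arrays lay below all wild-type arrays, against 10.1% of all genes. Dlat, the acetyltransferase of the same complex, was at -0.63 ± 0.11 and just missed the threshold (adjusted p = 0.0520). Mdh2, malate dehydrogenase, was at -0.40 ± 0.08 (adjusted p = 0.0597) and Pdha1, the catalytic subunit of pyruvate dehydrogenase, at -0.40 ± 0.08 (adjusted p = 0.0646). The mean over the list, relative to the wild-type mean, was -0.05, 0.01 and 0.03 in the wild-type and -0.36, -0.36 and -0.37 in the knock-out arrays. Over all settings run, the median of the list lay between -0.40 and -0.33. Pdk2, a kinase that switches the complex off, was at -0.60 ± 0.12 (adjusted p = 0.0646), and Pdk4 overlapped, with 13.30, 13.31 and 13.31 against 12.84, 12.65 and 13.92. The third knock-out array was the high one for Pdk4.

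Of 81 measured subunits of the respiratory chain and ATP synthase 2 passed the test, both lower. Without regard to the test, 78 had a difference below 0, against 52.1% of all genes. In 72 (88.9%) every knock-out array lay below every wild-type array, against 10.1% of all genes. The 81 subunits had a median of -0.24, and the medians of the lists ran from -0.35 to -0.20. Complex I, which takes electrons from NADH, had 0 of 33 past the test, a median of -0.24 and 31 of 33 with groups apart. Ndufv1, the subunit that binds NADH, read 13.54, 13.75 and 13.68 against 13.21, 13.23 and 13.22 (-0.44 ± 0.08, adjusted p = 0.0561). Ndufa8 was the lowest of the complex at -0.56 ± 0.12 (adjusted p = 0.0812) and Ndufb4 the highest at 0.01. Complex II, which links the chain to the tricarboxylic acid cycle, had 0 of 4 past the test and a median of -0.35. Complex III and cytochrome c had 0 of 10 and a median of -0.31. The arrays of Uqcrfs1, its Rieske iron-sulfur subunit, read 13.99, 13.98 and 13.99 against 13.57, 13.59 and 13.63 (-0.39 ± 0.07, adjusted p = 0.0646). ATP synthase had 1 of 17 lower and a median of -0.22. Atp5g1, 1 of the genes for the c-ring subunit, read 14.29, 14.47 and 14.40 against 13.84, 13.75 and 13.77 (-0.60 ± 0.10, adjusted p = 0.0390). A second, much dimmer probe set of Atp5g1 gave -0.20, and with the mean of both probe sets the gene no longer passed (-0.40, adjusted p = 0.391). The other genes for the same ring, Atp5g2 and Atp5g3, were at -0.22 and did not pass. Over all settings run, the medians of complexes I, II and III and of ATP synthase lay between -0.39 and -0.20.

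Cytochrome c oxidase, complex IV, has subunits that come in a muscle form and a form found in most tissues, and only 1 muscle form passed the test. Cox7a1, the muscle form of subunit 7a, read 13.78, 13.89 and 13.84 in wild-type and 12.86, 12.88 and 12.98 in knock-out arrays. All knock-out arrays were lower, 1.90-fold on average (-0.93 ± 0.14, adjusted p = 0.0306). Cox7a2, its widespread partner, was at -0.26 ± 0.09 and did not pass (adjusted p = 0.335), and it was not higher in any knock-out array than in any wild-type array. For subunit 6a the muscle form Cox6a2 was at -0.32 ± 0.08 (adjusted p = 0.131) beside -0.31 for the widespread Cox6a1. For subunit 8 the muscle form Cox8b was at -0.20 ± 0.09 (adjusted p = 0.416) and Cox8a at -0.34 ± 0.12 (adjusted p = 0.335). Cox7a1 alone passed: 1 of 7 tissue-specific and 0 of 10 ubiquitous or single-form subunits, with medians of -0.20 and -0.23. The tissue-specific list also holds Cox4i2 (-0.23), Cox7b2 (-0.16), Cox8c (-0.09) and Cox6b2 (0.07), which are not muscle forms. Its median therefore does not describe the muscle forms. In Cox7a1, Cox6a2 and Cox8b every knock-out array lay below every wild-type array, as in 8 of the 10 ubiquitous or single-form subunits. No test compared the members of a pair with each other.

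**Figure D2:**
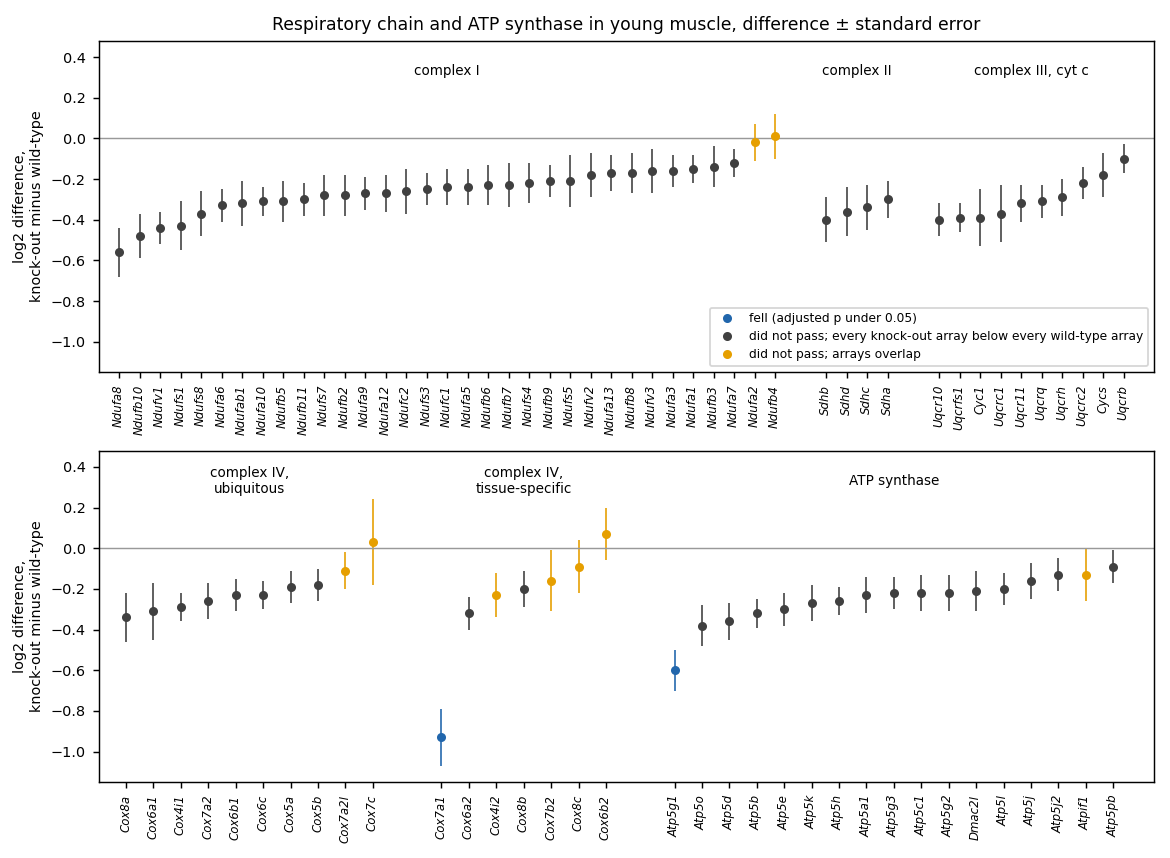
Log2 difference, young knock-out minus young wild-type, with its standard error from limma (vertical axis) for each of the 81 measured subunits (horizontal axis, ordered within each complex), coloured by whether the gene passed and whether the arrays of the groups overlapped. The subunits lie between -0.93 and 0.07, and Cox7a1 (-0.93) and Atp5g1 (-0.60) are the 2 that passed.

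Because most of these subunits had differences below 0, their promoters were read in the RefSeq table of GRCm38.p6. Windows of 250 bases before to 50 after the start were searched for letters known to bind the partners of PGC-1alpha named above. The cAMP response element, known to bind the factor CREB, was searched as well and is not an element of those partners. The elements, searched on both strands, were the ERR element TCAAGGTCA (also with an open base, as TNAAGGTCA, which includes the first), the GABP element CCGGAAGT, the cAMP response element TGACGTCA, the NRF-1 element (GCGCA, 1 open base, GCGC) and the MEF2 element (CTA, 4 open bases, TAG). Of 81 subunit genes 67 had a promoter in the table, with 72 windows in all. The NRF-1 element was in 17 of these 72 windows (23.6%, 16 genes), against 7.43% of the 18109 windows of tested genes and 4.60% of all 32851. The ERR element with an open base was in 3 (4.17%, against 1.08% of tested genes), those of Atp5g3, Ndufb4 and Sdhd. The cAMP response element was in 4 of 72 (5.56%, against 2.49% of tested genes), the GABP element in 5 (6.94%, against 5.83%) and the MEF2 element in 1 (1.39%, against 3.39%). The 19 pyruvate dehydrogenase and tricarboxylic acid cycle genes with a promoter have 26 windows. The cAMP response element was in 4 of these, of 2 genes, since 3 windows of Ogdh overlap and hold the same site. The NRF-1 element was in 2 of them (7.69%), the GABP element in 1 (3.85%) and the ERR and MEF2 elements in 0. Of the 28 genes that fell, 23 had a promoter, with 27 windows. The ERR and cAMP response elements were in 0, the GABP element in 1 (Mfn1) and the MEF2 element in 1 (Alas1). The NRF-1 element was in 3 (11.1%), 1 of Dld and 2 of Alas1 that overlap and hold the same sites. By gene it was in 2 of 23, against 1244 of the 14452 tested genes with a promoter. The windows of the subunits had a median GC content of 58.5% and those of tested genes 58.3%. A match is a description of letters, not of binding.

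Stretches before the start are printed for 5 genes that hold an element and whose groups did not overlap, to show the letters counted above, and for Ndufb4, which holds the NRF-1 element as well and was at 0.01. Glrx, Kcng4 and Cox7a1 are shown as the smallest p, the largest fall and the called chain subunit with the larger fall. Capitals mark the element, and the last 3 stretches hold none of them. Strand and place are Atp5g3 chr2:73911340-73911408 minus, Ndufb4 chr16:37654387-37654455 minus, Sdha chr13:74350299-74350368 minus, Ndufa10 chr1:92473788-92473855 minus, Mdh2 chr5:135778492-135778559 plus, Mfn1 chr3:32529408-32529475 plus, Glrx chr13:75839805-75839884 plus, Kcng4 chr8:119635681-119635760 minus and Cox7a1 chr7:30184091-30184170 plus.
Atp5g3, ERR element: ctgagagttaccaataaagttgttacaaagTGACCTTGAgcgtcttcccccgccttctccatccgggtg
Ndufb4, ERR element with an open base: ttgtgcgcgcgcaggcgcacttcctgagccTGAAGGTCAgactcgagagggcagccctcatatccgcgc
Sdha, NRF-1 element: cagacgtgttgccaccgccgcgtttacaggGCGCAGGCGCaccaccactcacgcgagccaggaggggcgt
Ndufa10, cAMP response element: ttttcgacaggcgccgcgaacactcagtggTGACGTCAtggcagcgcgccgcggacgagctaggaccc
Mdh2, cAMP response element: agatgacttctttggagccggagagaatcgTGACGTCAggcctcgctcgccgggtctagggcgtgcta
Mfn1, GABP element: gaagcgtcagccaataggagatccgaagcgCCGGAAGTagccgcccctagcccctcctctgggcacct
Glrx: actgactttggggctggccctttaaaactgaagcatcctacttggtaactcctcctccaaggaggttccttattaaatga
Kcng4: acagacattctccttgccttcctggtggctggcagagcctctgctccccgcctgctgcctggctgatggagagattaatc
Cox7a1: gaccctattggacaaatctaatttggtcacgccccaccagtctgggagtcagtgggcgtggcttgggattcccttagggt

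Fatty acid oxidation in mitochondria had 1 of 20 genes lower, 0 higher and a median of -0.28. Acot13, a thioesterase that splits long-chain acyl-CoA, read 12.57, 12.72 and 12.63 in wild-type and 12.04, 11.93 and 11.89 in knock-out arrays, apart by 1.61-fold (-0.68 ± 0.10, adjusted p = 0.0304). Etfa, which passes electrons from the oxidation steps to the chain, was at -0.40 ± 0.08 (adjusted p = 0.0691) and Acadvl, the first dehydrogenase for very long chains, at -0.46 ± 0.11 (adjusted p = 0.140). In 15 of the 20 genes all knock-out arrays were below all wild-type arrays, against 10.1% of all genes. Genes for fatty acid uptake, binding and storage differed less (median -0.14, 0 of 20 past the test, 3 of 20 with knock-out arrays wholly lower). Phyh, which starts the breakdown of branched phytanic acid in peroxisomes, read 11.91, 12.12 and 12.11 against 10.93, 11.09 and 11.02. The gap of 2.05-fold (-1.03 ± 0.12, adjusted p = 0.00481) was the only 1 past the test among 28 peroxisomal genes, whose median was -0.06.

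Breakdown of ketone bodies and branched-chain amino acids had a median of -0.38, as low as that of the tricarboxylic acid cycle. Here 1 of 21 genes fell, 0 rose, and 14 of 21 had groups wholly apart in the lower direction, against 10.1% of all genes. Mccc1, a subunit of the carboxylase in leucine breakdown, read 10.41, 10.52 and 10.54 against 10.04, 10.07 and 9.90 (-0.49 ± 0.08, adjusted p = 0.0360), and a second probe set gave -0.52. Mccc2, the other subunit of that enzyme, was at -0.42 ± 0.08 (adjusted p = 0.0646), Ivd, which acts 1 step earlier, at -0.67 ± 0.13 (adjusted p = 0.0720), and Mmut, the mutase that feeds methylmalonyl-CoA into the cycle, at -0.46 ± 0.08 (adjusted p = 0.0520). These 3 did not pass, and in each of them every knock-out array was below every wild-type array. The mean over the list was -0.33, -0.30 and -0.48 in the knock-out arrays, lowest in the third. In old muscle 0 of 21 passed, the list median was -0.18, and Mccc2 was at -0.02.

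Energy transfer and the dynamics of mitochondria each held 1 called gene. Ckmt2, the creatine kinase that charges creatine at the mitochondrial membrane, read 14.43, 14.48 and 14.51 in wild-type and 13.72, 13.71 and 13.94 in knock-out arrays (-0.69 ± 0.11, adjusted p = 0.0338). Its list had a median of -0.20, 1 of 18 lower and 0 higher. Gamt, the last enzyme of creatine synthesis, read 9.43, 8.80 and 8.78 against 9.99, 9.99 and 10.04, and did not pass (adjusted p = 0.185). Its groups were apart in the direction opposite to Ckmt2. Mfn1, a GTPase that fuses outer mitochondrial membranes, read 12.39, 12.58 and 12.66 against 11.83, 11.78 and 11.76 (-0.75 ± 0.11, adjusted p = 0.0160), and its other probe sets gave -0.78 and -0.42. Mtfp1, a fission protein of the inner membrane, was at -1.06 ± 0.21 without passing (adjusted p = 0.0708), and 1 of 20 genes of fusion, fission and mitophagy passed (list median -0.03).

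Among antioxidant and glutathione enzymes 2 of 33 fell and 0 rose, against 0.154% and 0.0385% of all genes, with a list median of 0.00. Glrx, glutaredoxin, which removes glutathione from oxidised protein thiols, had the smallest p of all genes. Its wild-type arrays read 9.60, 9.80 and 9.83 and its knock-out arrays 8.47, 8.49 and 8.47 (-1.26 ± 0.10, adjusted p = 0.000619), and the second probe set gave -1.24. The knock-out arrays differed among themselves by only 0.02. Sod2, which turns superoxide into peroxide in the matrix, read 13.13, 13.22 and 13.17 against 12.62, 12.57 and 12.67 (-0.55 ± 0.09, adjusted p = 0.0322), and its other 3 probe sets gave -0.59, -0.62 and -0.52. Prdx3, the peroxiredoxin of the matrix, was at -0.35 ± 0.09 and did not pass (adjusted p = 0.172).

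The genes of this paragraph fell and were in none of the lists, and the first 3 encode mitochondrial enzymes or carriers. Clybl, a mitochondrial lyase that clears citramalyl-CoA, had means of 10.72 ± 0.05 and 9.76 ± 0.02 (SD, n = 3 each) in wild-type and knock-out arrays (-0.96 ± 0.13, adjusted p = 0.0156). Fdx1, an iron-sulfur electron carrier of the matrix, had means of 12.02 ± 0.09 and 11.46 ± 0.07 (SD, n = 3 each; adjusted p = 0.0146). Alas1, the first enzyme of heme synthesis, had 11.80 ± 0.08 and 11.26 ± 0.08 (SD, n = 3 each; adjusted p = 0.0231). Their groups did not overlap, and the second probe set of Alas1 gave -0.45. Thap4, with a heme-binding domain, read 10.65, 10.81 and 10.85 in wild-type and 9.99, 9.99 and 10.02 in knock-out arrays, the latter nearly level and all lower (-0.77 ± 0.09, adjusted p = 0.00481). Its other, dimmer probe sets gave -0.61, -0.11 and -0.13. Pyurf, which helps methyltransferases of mitochondria (-0.74 ± 0.10, adjusted p = 0.0156), Tstd3, with a sulfurtransferase domain (-0.76 ± 0.12, adjusted p = 0.0304), and Rangrf, a partner of the GTPase Ran (-0.64 ± 0.10, adjusted p = 0.0341), fell as well.

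No member of the lists for the machinery that builds mitochondria passed the test. The mitochondrial ribosome had a median of -0.13, with 64 of 74 genes below 0 and 38 of 74 with all knock-out arrays lower. Over all genes these shares were 52.1% and 10.1%. Mrpl47 was at -0.52 ± 0.09 (adjusted p = 0.0520). Import and proteases of mitochondria also had a median of -0.13 (22 of 40 wholly lower), assembly factors of the chain -0.16 (25 of 43) and coenzyme Q synthesis -0.23 (8 of 12). Sco2, which carries copper to complex IV, was at -0.62 ± 0.12 (adjusted p = 0.0593) and Coq9, a lipid-binding protein of coenzyme Q synthesis, at -0.41 ± 0.10 (adjusted p = 0.131). Mitochondrial carriers (median -0.05, 0 of 32 past the test) and calcium transport of mitochondria (0.00, 0 of 7) were near the median of all genes.

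**Figure D3:**
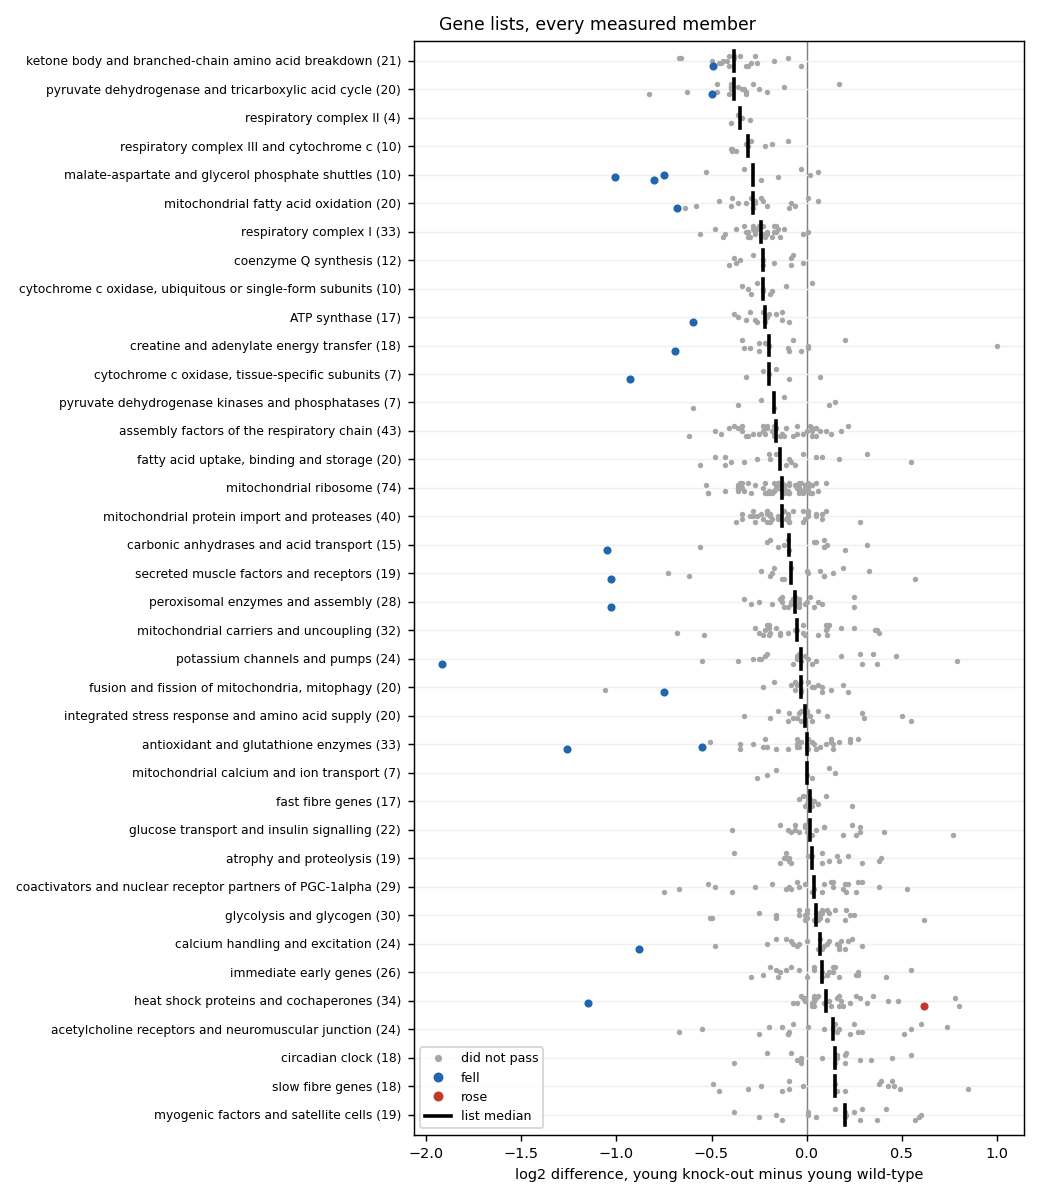
Log2 difference, young knock-out minus young wild-type (horizontal axis), of each measured member of the 38 pathway lists (rows, with the number measured), with genes that fell in blue, genes that rose in red and the list median as a black bar. Medians run from -0.38 for breakdown of ketone bodies and branched-chain amino acids and for the tricarboxylic acid cycle to 0.20 for myogenic factors, and most called genes stand far from the median of their list.

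Outside mitochondria the largest fall was that of Kcng4, a subunit that does not form a channel by itself but modifies potassium channels of the Kv2 family. Its arrays read 9.03, 9.15 and 9.07 in wild-type and 7.05, 7.06 and 7.38 in knock-out muscle, 3.79-fold apart (-1.92 ± 0.28, adjusted p = 0.0231). The other 23 measured potassium channel and pump genes did not pass, and the list median was -0.03. S100a1, a calcium-binding protein of the sarcoplasmic reticulum release and uptake sites, read 11.67, 11.85 and 11.82 against 10.85, 10.95 and 10.90 (-0.88 ± 0.10, adjusted p = 0.00481), with -0.80 on a second probe set. It was the 1 of 24 calcium handling and excitation genes past the test (list median 0.07). Car2, a cytosolic carbonic anhydrase, read 8.56, 8.73 and 8.75 against 7.48, 7.68 and 7.74 (-1.05 ± 0.13, adjusted p = 0.00908), 1 of 15 in its list (median -0.09). Slc16a1, a lactate carrier, was at -0.56 ± 0.15 and Slc16a3, the lactate exporter of fast fibres, at 0.32 ± 0.13, neither past the test (adjusted p = 0.190 and 0.390).

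Among secreted factors Fndc5, the precursor of irisin, read 10.06, 10.19 and 10.37 in wild-type and 8.94, 9.25 and 9.35 in knock-out arrays (-1.03 ± 0.17, adjusted p = 0.0360), and a second probe set gave -1.14. The growth factor gene Vegfb (-0.62 ± 0.14, adjusted p = 0.108) and the cytokine gene Il15 (-0.73 ± 0.18, adjusted p = 0.147) did not pass, although neither overlapped between the groups. Fuom, which interconverts the forms of fucose, read 10.09, 10.33 and 10.31 against 8.97, 9.31 and 9.14 (-1.10 ± 0.12, adjusted p = 0.00481). Mfsd4a, of a family of membrane transporters, fell by 0.93 on the log2 scale (SE 0.15, adjusted p = 0.0319). Its other, dimmer probe sets gave -0.63, -0.14 and -0.30. The remaining falls were in dim genes, whose lower mean lay under 6.22, the median of the probe sets, where background may compress the fold. Hsbp1l1, related to a binding protein of heat shock factor, read 6.77, 6.25 and 6.65 against 5.04, 5.44 and 5.73, 2.21-fold lower (adjusted p = 0.0390). Trim14, of the innate immune response, had means of 5.82 and 5.28, both under 6.22 and 1.45-fold apart (adjusted p = 0.0402).

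Of the 7 genes that rose, 1 belonged to a pathway list (Hspa1l) and 2 were dim. Psip1, a chromatin-binding protein, read 8.30, 8.34 and 8.55 in wild-type and 9.23, 9.65 and 9.69 in knock-out arrays on the brightest probe set (1.13 ± 0.19, adjusted p = 0.0380). Its other 2 probe sets gave 0.03 and 0.04, so that the probe sets disagree. Tph1, the enzyme that starts serotonin synthesis outside the brain, read 5.47, 5.30 and 5.38 against 6.26, 6.33 and 6.47, 1.96-fold higher (adjusted p = 0.00908). Tinag, a basement membrane protein best known from kidney, read 4.97, 5.39 and 4.79 against 6.03, 6.16 and 6.24, 2.13-fold higher (adjusted p = 0.0360). Both lay below 6.22 in the wild-type arrays, and Tinag had a knock-out mean below it as well (6.14). Arrb1, a beta-arrestin that ends signals of receptors coupled to G proteins, read 7.62, 7.23 and 7.63 against 8.15, 8.36 and 8.31 (0.78 ± 0.13, adjusted p = 0.0390). Lrp11, of the low-density lipoprotein receptor family, read 7.28, 6.81 and 7.12 against 7.75, 7.65 and 7.91 (0.70 ± 0.12, adjusted p = 0.0454). Their groups were apart, with the second wild-type array the lowest for both. Hspa1l, an Hsp70 chaperone, read 8.93, 8.81 and 8.90 against 9.53, 9.61 and 9.35 (0.62 ± 0.10, adjusted p = 0.0341), and Lonrf1, with a ring finger and a LON domain, was at 0.51 ± 0.09 (adjusted p = 0.0477).

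Partners and other coactivators of the PGC-1 family did not pass, with 0 of 29 called and a list median of 0.04. Esrra, the estrogen-related receptor that relays PGC-1alpha to mitochondrial genes, read 10.70, 11.15 and 11.14 against 10.24, 10.23 and 10.26 and stood nearest to the threshold (-0.75 ± 0.14, adjusted p = 0.0593). Sirt3, a deacetylase of mitochondria, was at -0.67 ± 0.18 (adjusted p = 0.204). Pprc1, a related coactivator, was at 0.27 ± 0.10 (adjusted p = 0.365). In Esrra and Sirt3 the groups were apart, and Ppara (-0.48 ± 0.15) and Perm1 (-0.52 ± 0.19) overlapped because the first wild-type array was low.

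Contractile genes and genes of glycolysis had none past the test. Among fast fibre genes 0 of 17 passed, and all 17 lay between -0.04 and 0.24 (median 0.02). Slow fibre genes ran from -0.49 to 0.85 with a median of 0.15 and 0 of 18 past the test: Casq2, a calcium store protein, was at -0.46 ± 0.14 and Atp2a2, the calcium pump of slow fibres, at 0.43 ± 0.16 (adjusted p = 0.266 and 0.342). Glycolysis and glycogen genes had a median of 0.05 and 0 of 30 past the test. Fbp2, the muscle fructose bisphosphatase, read 10.80, 10.77 and 10.80 against 11.50, 11.45 and 11.28 (0.62 ± 0.18, adjusted p = 0.239), and Ldhb, the lactate dehydrogenase of oxidative tissue, was at -0.51 ± 0.17 (adjusted p = 0.277). Among genes of glucose transport and insulin signalling 0 of 22 passed (median 0.02), and Slc2a4, the insulin-responsive glucose transporter, was at -0.14 ± 0.10 (adjusted p = 0.610).

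The lists of this paragraph had medians near or above that of all genes (-0.01), and among them only the heat shock list held called genes. Acetylcholine receptor and neuromuscular junction genes had a median of 0.14, 0 of 24 past the test and 7 of 24 with every knock-out array above every wild-type array, against 10.7% of all genes. Chrna1, the receptor subunit that binds acetylcholine, read 9.47, 9.22 and 9.39 against 9.72, 9.94 and 9.95 (0.51 ± 0.09, adjusted p = 0.0561). Musk, the kinase that clusters the receptors, was at 0.74 ± 0.19 (adjusted p = 0.155) and Erbb3, a neuregulin receptor, at -0.67 ± 0.14 (adjusted p = 0.0812). The median of this list was 0.06 without the third knock-out array. Of the myogenic factors and satellite cell genes 0 of 19 passed (median 0.20), and the embryonic myosin gene Myh3 was at 0.57 ± 0.15 (adjusted p = 0.186). Heat shock proteins and cochaperones had a median of 0.10, with Hspa1l higher and Hsbp1l1 lower among 34, and the stress-induced Hspa1a was at 0.78 ± 0.26 (adjusted p = 0.296). The atrophy list (0.03), the integrated stress response (-0.01), immediate early genes (0.08) and the circadian clock (0.15) had 0 genes past the test. The clock list averaged 0.18, 0.23 and -0.08 in the knock-out arrays, so that the third lay apart.

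Cell types, muscle fibres included, were read from 10 lists with 131 measured entries (a gene may stand in more than 1 list), and 0 of them passed. In whole muscle, fewer cells of a type and less RNA per cell cannot be told apart. Single arrays stood out. Lymphocyte markers averaged 0.90 in the first wild-type array and between -0.54 and -0.37 in the other 5, and the summed signal of the 17 measured markers ran from 2570 to 4950 in wild-type and from 1750 to 2170 in knock-out arrays. The list median was -0.42, or -0.01 without that array, and 7 of the 17 markers had a mean above 6.22. Tendon and matrix markers, whose lists share Col1a1 and Thbs4, averaged 1.08 and 0.80 in the third knock-out array. Their summed signals ran from 13900 to 15200 and from 50000 to 69300 in wild-type arrays, and from 13000 to 28900 and from 52800 to 102000 in knock-out arrays. Without that array the tendon median went from 0.47 to 0.04 and the matrix median from 0.25 to -0.03. Macrophage markers had a median of 0.32 with 0 of 19 groups apart in either direction, and averaged 0.45 and 0.46 in the second and in the third knock-out array. Schwann cell markers (median -0.24), adipocyte markers (-0.32) and endothelial markers (-0.12) had 2 of 10, 2 of 14 and 4 of 16 genes wholly lower in knock-out arrays. Of all genes, 10.1% were wholly lower. Mbp, a myelin protein, read 10.18, 11.56 and 11.57 against 10.46, 9.42 and 9.83, overlapping by the first wild-type array. The part of these markers in the called genes was not tested. Without the first wild-type array, 26 of the 35 genes passed among 46, and without the third knock-out array 8 passed, all of them among the 35.

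**Figure D4:**
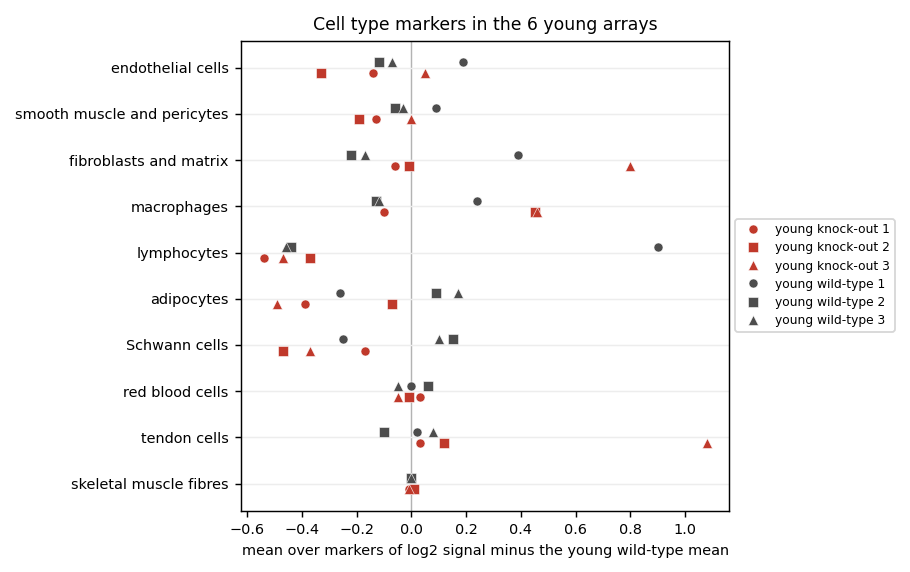
Mean over the markers of each cell type of log2 signal minus the young wild-type mean (horizontal axis) for the 3 knock-out (red) and 3 wild-type (grey) arrays of young muscle, with a symbol shape for each replicate number. The first wild-type array lies at 0.90 for lymphocytes, and the third knock-out array lies at 1.08 for tendon cells and 0.80 for fibroblasts, while skeletal fibre markers, read near the top of the scale, lie within 0.01 of 0 in all 6 arrays.

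The same contrast in muscle of 24 months shares no array with the young one, and most of the falls were present there too. Of the 28 genes that fell in young muscle, 27 were below 0 in old muscle too, as were 53.9% of all genes, and 24 (85.7%) fell past the test, against 0.852% of all genes. Both ages share 1 estimate of the spread for each gene, so a gene called for a small spread in young muscle passes more easily in old muscle. They made up 15.5% of the 155 genes that fell in old muscle. Their medians were -0.76 in young and -0.74 in old muscle. At 24 months Kcng4 read 7.52, 8.02 and 7.64 in wild-type against 4.84, 5.55 and 6.37 in knock-out muscle (-2.14 ± 0.28, adjusted p = 0.00775), again with no overlap. Hsbp1l1 (-0.72 ± 0.19, adjusted p = 0.0862), Rangrf (-0.37 ± 0.10, adjusted p = 0.0916) and Mccc1 (-0.22 ± 0.08, adjusted p = 0.166) had the same sign without passing. The count of called genes that also passed in old muscle, 25 in both directions together, was 15 without the third old wild-type array. Of the 7 genes that rose, 5 were above 0 in old muscle, as were 46.1% of all genes. In old muscle 1 of the 7 (14.3%) rose past the test, against 0.473% of all genes: Hspa1l at 0.58 ± 0.10 (adjusted p = 0.0179). It made up 1.16% of the 86 genes that rose in old muscle. The medians of the 7 were 0.78 in young and 0.32 in old muscle.

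**Figure D5:**
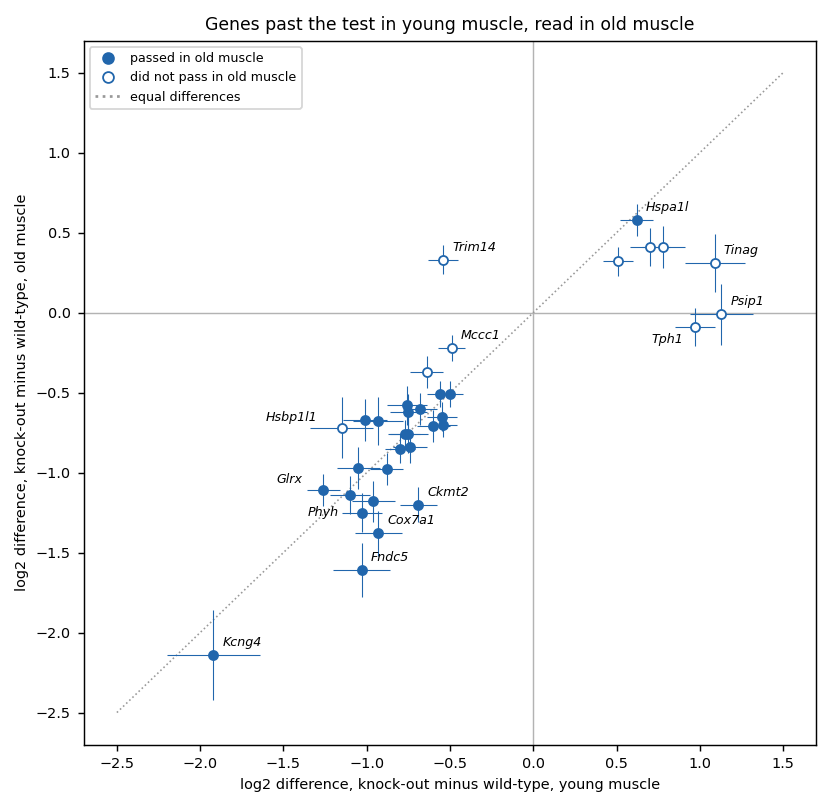
Log2 difference, knock-out minus wild-type, in young muscle (horizontal axis) and in old muscle (vertical axis) for the 35 genes past the test in young muscle, with standard errors from limma as bars and filled points for genes that also passed in old muscle. Of the 28 genes that fell, Trim14 (-0.54 and 0.33) lies on the other side of 0 in old muscle. Below the dotted line of equal differences lie 15 of the 28, Fndc5, Ckmt2 and Cox7a1 among them. Of the genes that rose, Tph1 and Psip1 lie near 0 in old muscle.

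Whether the effect of genotype differed between the ages was tested gene by gene, and 0 of 18193 genes (0%) passed (smallest adjusted p = 0.235), while 992 had an unadjusted p under 0.05. The smallest p was that of Trim14, which at 24 months read 5.59, 5.72 and 5.81 in wild-type against 6.00, 6.01 and 6.09 in knock-out muscle, opposite to its order in young muscle. Its effect was 0.86 ± 0.13 higher in old muscle, with all 12 arrays under 6.22. A second, dimmer probe set of Trim14 gave -0.13 in young and -0.29 in old muscle, with no change of sign. Tph1 read 5.68, 5.94 and 6.06 against 5.60, 5.98 and 5.82 in old muscle, where the groups overlapped, and its effect was 1.06 lower (SE 0.17, adjusted p = 0.266). Ckmt2 (-0.69 in young, -1.20 in old), Fndc5 (-1.03, -1.61) and Cox7a1 (-0.93, -1.38) had more negative values in old muscle, and these differences did not pass (each adjusted p = 0.871). Of the 28 genes that fell in young muscle, 15 had a more negative value in old muscle. The rest did not, such as Aspa (-1.01, -0.67) and Mccc1 (-0.49, -0.22). Without the third old knock-out array, 37 genes passed this test, with Psip1 and Trim14 among them. They also include 5 of the 14 measured adipocyte markers, such as Adipoq and Fabp4, and these markers averaged 1.17, 0.65 and -0.87 in the 3 old knock-out arrays. The part of fat cells in this count was not tested.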

How the data were processed

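The deposited values are log2 signals of Affymetrix arrays, used as they stand. The authors made them by RMA (tool affy, version not given), per the submitters' processing notes. RMA sets all arrays to 1 distribution, so a shift shared by most genes would not be seen, and background compresses differences of dim probe sets. Of 45101 probe sets 34958 named 1 gene, 932 several and 9211 none; control probe sets (64) were left out. Each gene was read from its probe set with the highest mean over the 12 arrays.

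Limma 3.58.1 (R 4.3.3, lmFit and eBayes) fitted 4 group means to all 12 arrays, so that the groups share 1 spread (8 residual and 4.15 prior degrees of freedom), with Benjamini-Hochberg adjustment over 18193 genes and a threshold of 0.05. The number of arrays, 3 per group, limits the precision. The procedure was tested on simulated data. The replicate numbers are names in accession order and pair nothing.

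The genes described and the 38 pathway and 10 cell type lists were chosen with earlier results of these data known. Every gene past the threshold is named. The 5 largest falls and rises, the 5 smallest p and called list members are given array by array (Dld by its means). Each list is illustrated by at most 4 members, those of smallest p. The c-ring genes beside Atp5g1 and a few other list members were named after their values were seen. Promoter sequences are from RefSeq (GRCm38.p6). Alternatives were other choices of probe set, of the arrays fitted, of brightness, normalization, variance, array weights and threshold, and leaving out arrays.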

Additional observations from a re-analysis of the deposited data

How the results depend on the processing

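No paired analysis was possible because the labels give no replicate numbers that groups share. The count of 35 genes was 41 with every probe set tested (31 of the 35 among them), 51 with the mean of probe sets (28), 25 with the 6 young arrays alone (18) and 33 with centred arrays (33). It was 63 over genes of mean 6.22 or more, 56 after a further quantile normalization, 104 with trended and robust variances, 119 at an adjusted p of 0.10 and 1019 with array weights, where the third young wild-type array had a weight of 4.73 and the first old knock-out array 0.282. Leaving out 1 array gave 1 to 173 genes, and leaving out the first young wild-type and first old knock-out arrays together, chosen after the data were seen, gave 216. The share of calls that were higher was 20.0%, and 38.4% with array weights. The number of called genes that also passed in old muscle, 25, ran from 15 to 25 with 1 array left out. The difference between the ages ran from 0 to 37 genes with 1 array left out, and gave 1 without the second old wild-type array and 37 without the third old knock-out array. Of 731 values for the called genes over 21 settings, 475 stayed past the threshold with the same sign, 256 no longer passed and 0 changed sign. The causes were not tested. List medians moved by more than the spread between replicates in 56 of 1029 values, over 24 of 48 lists. Among lists with a median more than 0.10 from 0, the matrix list alone changed sign, without the third young knock-out array (-0.03). Dim probe sets limit what can be seen: 11364 of 18193 genes had a mean of at least 6.22, and 31 of the 35 called genes had both group means above it.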

Other observations

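Testing each probe set by itself passed 10 genes whose brightest probe set had not passed, among them Dlat of the pyruvate dehydrogenase complex, Acsl3, which activates long-chain fatty acids, and Rora, a nuclear receptor of the circadian clock. These were named after their values were seen.

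Around Ppargc1a, on chromosome 5, 187 tested genes lay within 20 Mb and 0 of them passed in young muscle by limma. Nor did any of the 1131 tested genes of that chromosome. Of all 18193 genes only 35 (0.192%) passed, so counts of 0 in sets of these sizes do not set the region apart. Of 10092 probe sets without a single gene name, 0 passed (smallest adjusted p = 0.230 by limma), while 724 had an unadjusted p under 0.05.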
